A study of Drosophila melanogaster with 34 samples.

Results

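Nuclear genes for the mitochondrial respiratory chain and ATP synthase were followed in wing imaginal discs and *scrib* mutant tumors of *Drosophila melanogaster*. Members were chosen by their symbol: ND- for complex I, SdhA to SdhD and their copies for complex II, UQCR- for complex III, COX followed by a digit for complex IV and ATPsyn for complex V. Of 17641 genes in the tables, 83 matched. Of these, *COX1*, *COX2* and *COX3* lie in mitochondrial DNA, and all 13 protein genes of that genome were listed at 0 in every library, so that only nuclear subunits are described. A further 20 nuclear symbols had a mean under 1 CPM (read counts scaled to an effective library size) in all 9 groups and were dropped. The remaining 60 genes comprised 32 of complex I, 4 of complex II, 5 of complex III, 7 of complex IV and 12 of complex V.

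Of the 20 dropped symbols, 17 end in the L, with or without a number after it, by which copies of a subunit gene are named. Of these, 6 were listed at 0 throughout. The other 3, *ND-MNLL*, *UQCR-14* and *ND-B8*, are not named as copies. All exon bases of *ND-MNLL* are also annotated to *CG45089*, and all those of *UQCR-14* to *CG32576*; both were listed at 0. *ND-B8* averaged 0.023 CPM and shares 15.4% of its exon bases with *Gs1l*. *ND-MNLL* and *UQCR-14* were therefore not measured, and *ND-B8* was read at 0 to 0.149 CPM, too low to describe. Among the copies listed at 0, *COX5BL* has all its exon bases annotated also to *Trmt6* and was likewise not measured. Among the 60 kept genes, *ND-MWFE* at a mean of 1.09 CPM and the copy *ATPsynepsilonL* at 0.924 CPM lay near the minimum, and 7 genes share over 15% of their exon bases with another gene.

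The respiratory chain sits in the inner mitochondrial membrane. Complex I takes electrons from NADH and complex II takes them from succinate, and both hand them through ubiquinone to complex III. Cytochrome c carries the electrons on to complex IV, which reduces oxygen. Complexes I, III and IV pump protons, and complex V, the ATP synthase, makes ATP as the protons return. Most subunits are encoded in the nucleus and imported, while a small set of core subunits comes from mitochondrial DNA.

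RNA-seq was performed on whole wing discs or tumors from larvae raised at 25 degrees. Control discs were from the *FRT82B* strain and were sampled at 4 days (n = 3) and 5 days (n = 4) after egg laying (AEL), after which control larvae pupate. Tumors were discs homozygous for the *scrib1* allele on the same *FRT82B* chromosome, sampled at 4, 5, 8, 10, 12 and 14 days (n = 4 each) and at 6 days (n = 3). *scrib* encodes a cell polarity protein, and discs that lack its function overgrow as tumors in larvae that do not pupate on time, so control and tumor could be compared at the same age only at 4 and 5 days. At those ages the study reports that the mutant discs were smaller than control discs, a state it calls growth arrest. Every cell of a mutant larva carries the allele, and the repeats are described as biological without the number of discs in each library.

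The 34 libraries held 18437402 to 26619424 reads on genes, with 10571 to 11361 genes detected, and 3 reads corresponded to 0.116 to 0.166 CPM. *scrib* RNA itself ranged from 387 to 490.0 CPM in control discs and from 521 to 893 CPM in tumors; the tables give the whole gene and not the allele, so this level does not check the labels. All 14 wing disc markers were detected, with a summed level of 1740 to 4051 CPM, and 5 of 9 testis markers were under 3 reads in every library. The summed level of 13 larval muscle markers was 1540 to 1804 CPM in tumors at 4 days and 228 to 512 CPM from 8 days on. That of 14 gut markers was 377 to 2131 CPM at 4 days and 4.75 to 14.1 CPM at 14 days, with 591 CPM in tumor replicate 1 at 10 days and 2655 CPM in control replicate 2 at 4 days. In bulk samples, fewer cells of a type and less RNA per cell cannot be told apart.

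Of the 60 genes, 58 fell as *scrib* mutant tumors aged. Their summed level was 12726 ± 305 CPM (SD, n = 4) in tumors at 4 days and 6369 ± 361 CPM (SD, n = 4) at 14 days. The slope of log2(CPM + 1) on age over the 27 tumor libraries was below 0 for 59 genes, and 58 of these passed an adjusted p of 0.05 in limma, where 40.8% of the 9408 tested genes had a called fall. None had a called rise, where 36.4% of tested genes did, with 0 rises also at an unadjusted p under 0.05 and 0 in edgeR on the reads. The median slope was -0.089 per day for the 60 genes and -0.0040 for all tested genes. Leaving out any single tumor library gave 58 falls each time. All libraries at 14 days lay below all libraries at 4 days for 56 of the 60 genes, as for 35% of all tested genes. The exceptions were *ND-MWFE*, *ND-B14.5B*, *ND-AGGG* and *UQCR-11*.

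For 57 genes the tumor mean was highest at 4 days, and for 57 it was lowest at 14 days. The group means fell at every one of the 6 steps between consecutive tumor ages for 39 genes. Across all 9 groups, control discs included, the lowest mean was that of tumors at 14 days for 49 genes and that of control discs at 5 days for 10. The same counts over all tested genes were not computed, so these orders are not set apart from those of other genes.

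**Figure D1:**
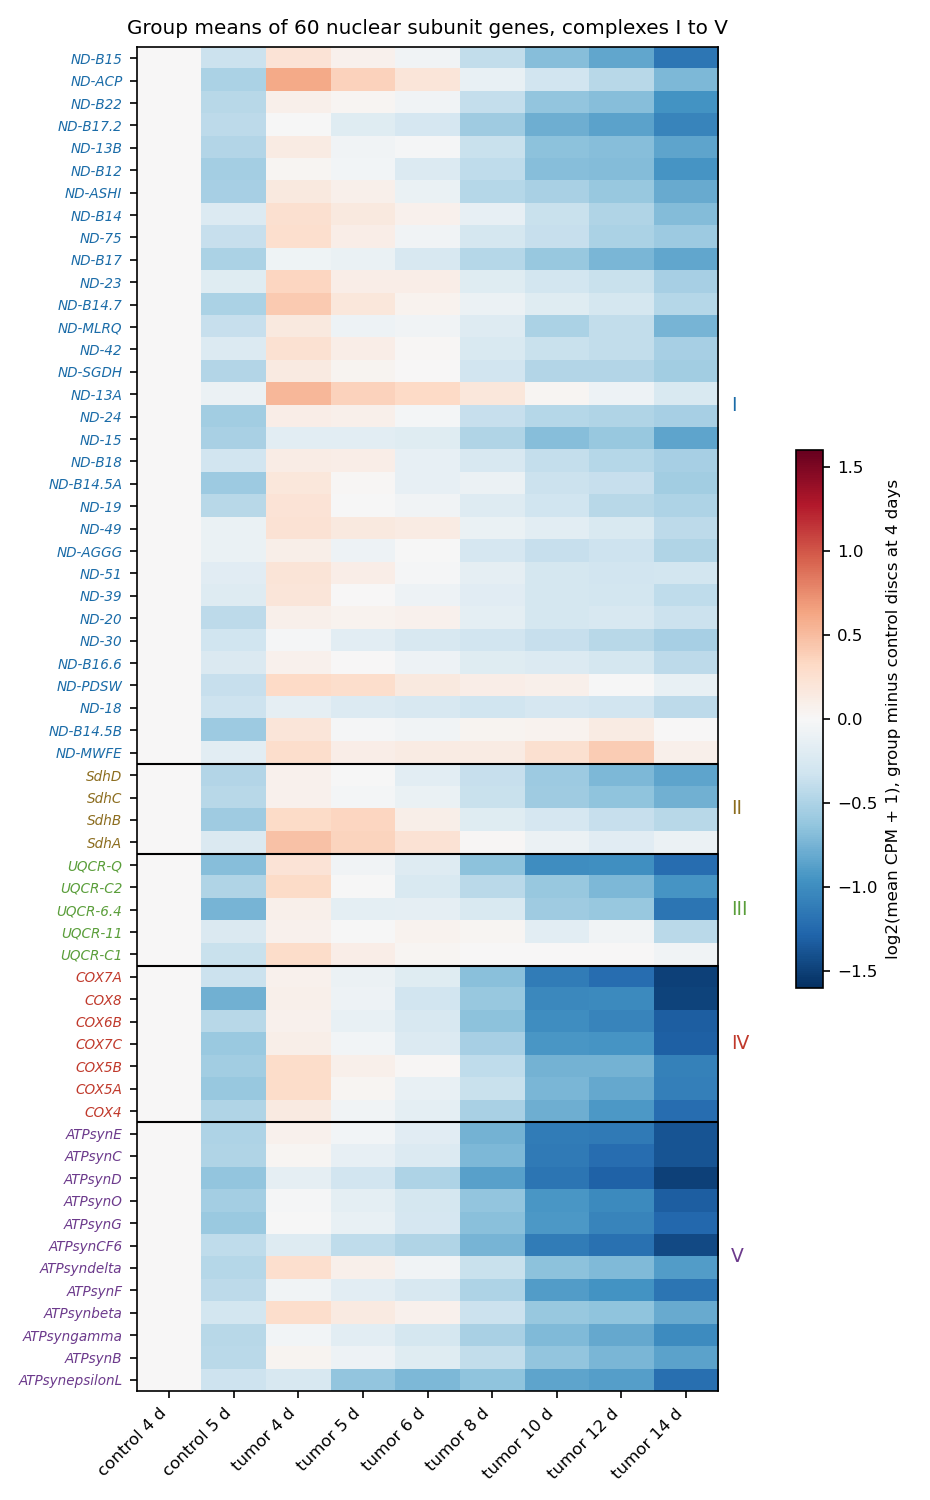
Colour map of the group means of the 60 genes (rows, grouped by complex and ordered by slope) in the 9 groups (columns), as the log2(mean CPM + 1) minus that of control discs at 4 days; red is higher and blue lower. At 14 days complexes IV and V are the darkest blue, while *UQCR-C1*, *SdhA*, *ND-B14.5B* and *ND-MWFE* are close to white at that age.

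The genes retained different shares of their early level. At 14 days the genes of complex IV retained a median of 38.0% of their 4-day tumor mean, with a narrow range of 33.5% to 38.7% over its 7 genes. Complex V retained a median of 41.9% and complex III 42.0%, but complex III ranged from 36.6% to 78.5%. Complex I retained a median of 59.9% with a range from 36.5% to 87.8%, and complex II a median of 57.4%. Over all 60 genes the median was 52.8%.

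**Figure D2:**
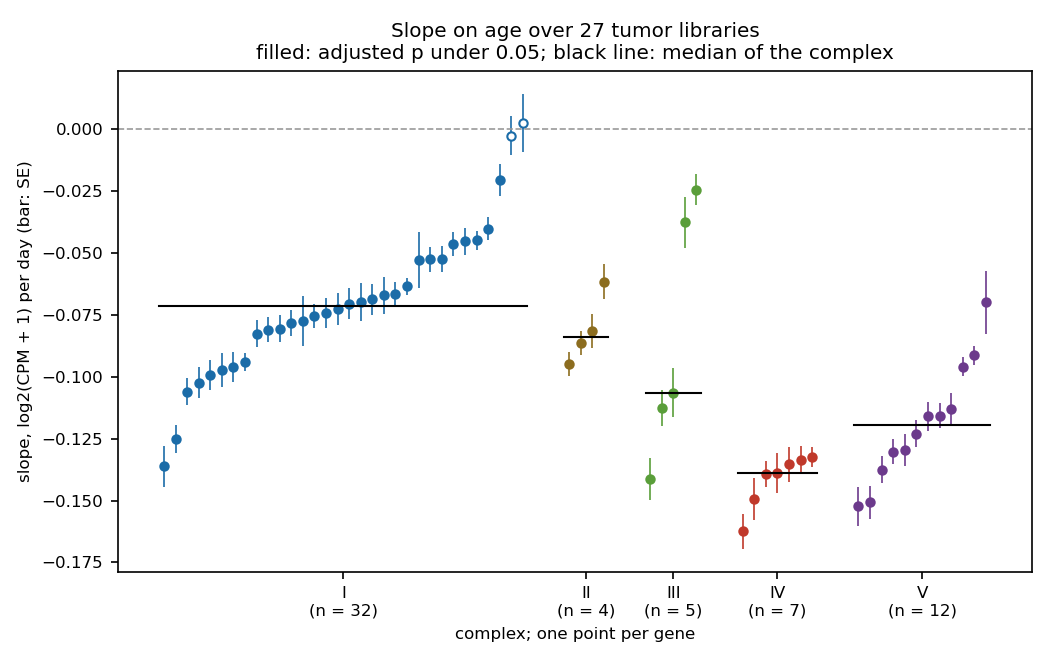
Slope of log2(CPM + 1) per day of age over 27 tumor libraries for each of the 60 genes (points) with its standard error (bars), by complex; filled points passed an adjusted p of 0.05 and the black line is the median of the complex. Complex IV lies in a tight band from -0.16 to -0.13, whereas complexes I and III reach from about -0.14 to near 0.

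The 32 genes of complex I, the NADH dehydrogenase, had a median slope of -0.072, and 30 of them fell. Its 7 catalytic core subunits all fell, with slopes from -0.083 to -0.045, and among its 25 accessory subunits 23 fell. *ND-75*, the iron-sulfur core subunit and the most abundant of the complex, was read at 319, 320.2, 319 and 385 CPM in the 4 tumors at 4 days and at 194, 197, 170.0 and 182 CPM in the 4 at 14 days. The groups did not overlap, and the highest library, tumor replicate 4 at 4 days, stood apart from the other 3. Its slope was -0.083 ± 0.0056 (SE; limma adjusted p = 1.2e-13). *ND-B15*, an accessory subunit with the steepest slope of the complex, was read at 38.0, 37.7, 34.7 and 25.1 CPM at 4 days and at 11.4, 13.9, 13.6 and 10.5 CPM at 14 days, and here replicate 4 at 4 days was the lowest. It retained 36.5% of its 4-day mean, with a slope of -0.14 ± 0.0083 (SE; limma adjusted p = 1.2e-14).

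A pair of accessory subunits of complex I had no called slope. *ND-B14.5B* had a mean of 65.3 ± 5.47 CPM (SD, n = 4) in 4-day tumors and 57.3 ± 6.03 CPM (SD, n = 4) in 14-day tumors. Its highest value of all 34 libraries was 80.7 CPM, in replicate 1 at 12 days, and its slope was -0.0027 ± 0.0079 (SE; limma adjusted p = 0.76). *ND-MWFE*, a small membrane subunit, was at 1.30 ± 0.229 CPM (SD, n = 4) and 1.00 ± 0.468 CPM (SD, n = 4), a slope of 0.0023 ± 0.012 (SE; limma adjusted p = 0.86). At this level, and with 35.0% of its exon bases shared with *Nrk* and *TppII*, a moderate change of *ND-MWFE* was not detectable.

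All 4 genes of complex II, the succinate dehydrogenase that is also an enzyme of the citrate cycle, fell. Slopes were -0.062 and -0.082 for the catalytic pair and -0.095 and -0.086 for the membrane anchors; the difference between the pairs was not tested. *SdhA*, the flavoprotein that oxidizes succinate, was read at 422, 406, 431 and 512 CPM at 4 days and 298, 328, 273 and 298 CPM at 14 days, a slope of -0.062 ± 0.007 (SE; limma adjusted p = 5.5e-09). The libraries of the 2 ages did not overlap, but from 8 to 14 days alone the slope was -0.021 and did not pass the test. *SdhD*, a membrane anchor, was read at 71.0, 68.6, 69.8 and 84.3 CPM at 4 days and 36.4, 43.0, 36.7 and 38.2 CPM at 14 days. Its slope was -0.095 ± 0.0049 (SE; limma adjusted p = 3.4e-16), and it retained 52.5% of its 4-day mean against 67.6% for *SdhA*.

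In complex III, the cytochrome bc1 complex, the core proteins *UQCR-C1* and *UQCR-C2* retained different shares. *UQCR-C1* was read at 567, 585, 565 and 719.7 CPM in tumors at 4 days and 501, 519, 476 and 418 CPM at 14 days. The ages did not overlap, replicate 4 was far above the other libraries at 4 days, and the slope of -0.025 ± 0.0062 (SE; limma adjusted p = 8.6e-04) was the shallowest called fall of the complex. From 8 to 14 days alone it was -0.012 and was not called. *UQCR-C2* was read at 309, 327, 309 and 365 CPM at 4 days and 137, 151, 136 and 126 CPM at 14 days, so that every late library was under every early one by a wide gap. Its slope was -0.11 ± 0.0073 (SE; limma adjusted p = 4.8e-14), and it retained 42.0% of its 4-day mean where *UQCR-C1* retained 78.5%; *UQCR-C2* was chosen after its values were seen, and the difference between the slopes was not tested. The small subunit *UQCR-Q*, which lies beside cytochrome b, had the steepest slope of the complex, -0.14 ± 0.0085 (SE; limma adjusted p = 1.0e-14), from 193, 207, 193 and 159 CPM at 4 days to 71.6, 72.0, 67.9 and 64.0 CPM at 14 days.

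The 7 genes of complex IV, cytochrome c oxidase, fell in step. *COX4*, a regulatory subunit with the shallowest slope of the complex, was read at 304, 307, 301 and 295 CPM at 4 days and 119, 125, 115 and 109 CPM at 14 days, and its slope was -0.13 ± 0.0041 (SE; limma adjusted p = 1.7e-20). *COX7A*, with the steepest, was read at 291, 293, 278 and 245 CPM at 4 days and 95.6, 95.3, 92.0 and 90.4 CPM at 14 days, and its slope was -0.16 ± 0.007 (SE; limma adjusted p = 1.0e-17). For neither gene did the libraries of those ages overlap. *COX5A*, the most abundant of the complex, went from 337 ± 15.4 CPM (SD, n = 4) to 128 ± 10.4 CPM (SD, n = 4), a slope of -0.13 ± 0.0058 (SE; limma adjusted p = 1.0e-17).

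All 12 genes of complex V fell. *ATPsynC*, which forms the rotor ring in the membrane, had the highest mean CPM of the 60 genes over all libraries, with 1688, 1672, 1684 and 1517 CPM in tumors at 4 days and 634, 619, 608 and 594 CPM at 14 days. From 8 days on, *ATPsynbeta*, the catalytic beta subunit, had the higher mean CPM in tumors, not scaled to length, at 734 ± 38.8 CPM (SD, n = 4) at 14 days. *ATPsynC* retained 37.4% of its 4-day mean, with a slope of -0.15 ± 0.0067 (SE; limma adjusted p = 2.0e-17). *ATPsynE*, a small membrane subunit, had the steepest slope of the complex, -0.15 ± 0.0079 (SE; limma adjusted p = 4.6e-16), from 158, 161, 165 and 143 CPM at 4 days to 59.5, 55.8, 56.7 and 56.7 CPM at 14 days. The 3 subunits of the catalytic head and central stalk had slopes from -0.12 to -0.096, and the 8 of the ring, peripheral stalk and membrane from -0.15 to -0.091. The copy *ATPsynepsilonL* was read at 1.78, 1.24, 1.29 and 1.37 CPM at 4 days and at 0.144, 0.245, 0.286 and 0.354 CPM at 14 days, close to the value of 3 reads, so that its slope of -0.07 ± 0.013 (SE; limma adjusted p = 1.7e-05) understates its change.

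**Figure D3:**
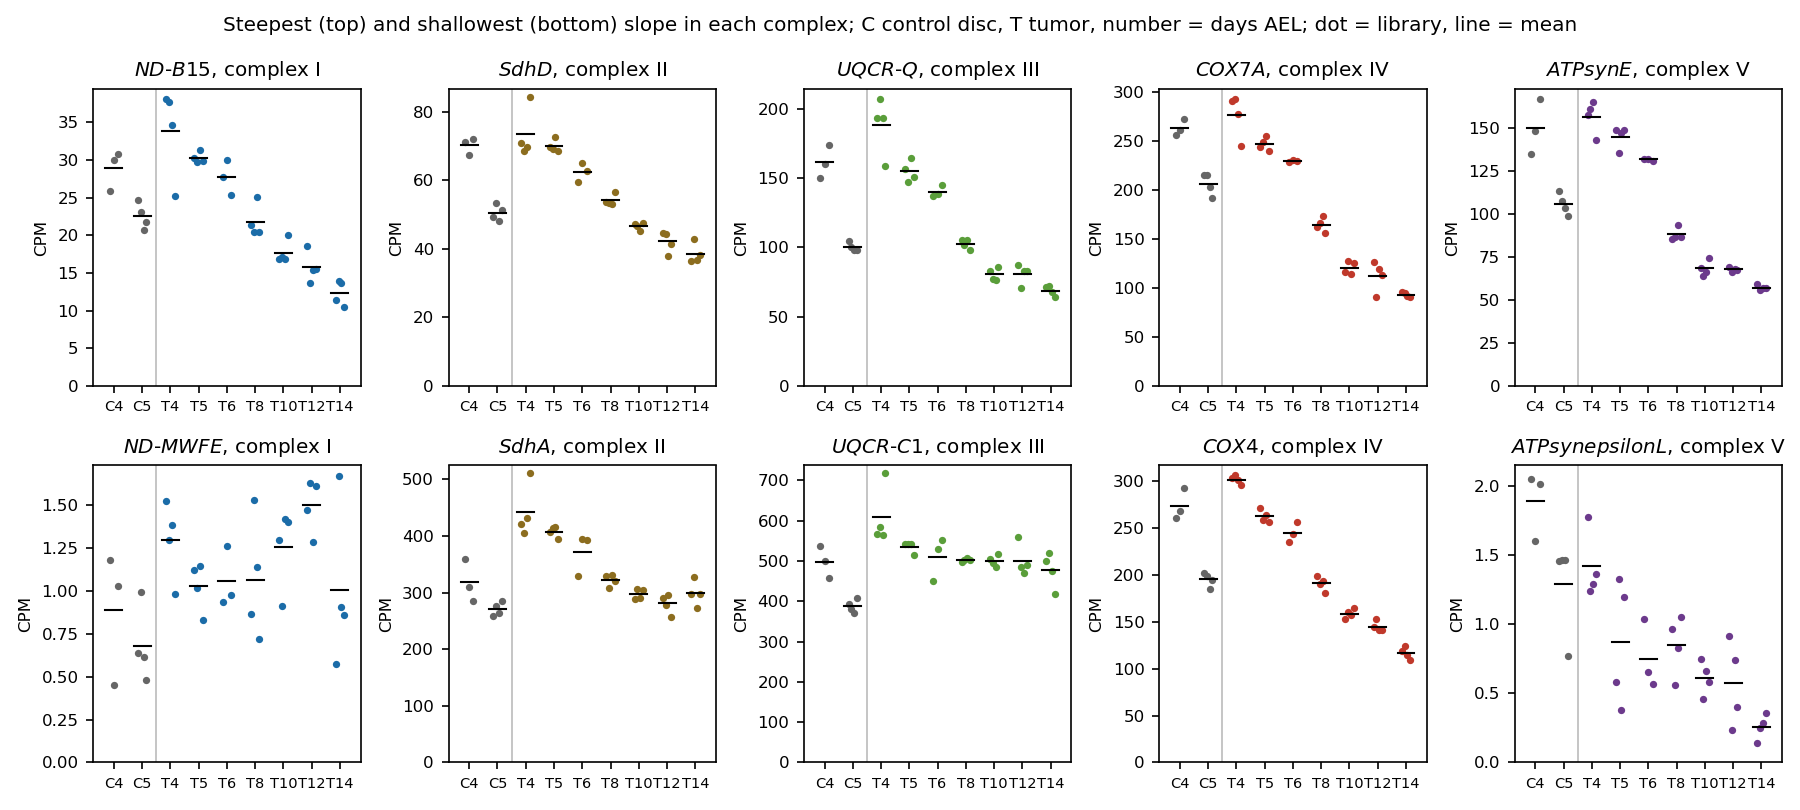
CPM of the gene with the steepest slope (top) and the shallowest slope (bottom) of each complex in all 34 libraries (points) by group (C4, C5 control discs; T4 to T14 tumors; numbers are days AEL), with group means as lines and axes from 0. The top row and *COX4* fall through the tumor ages, *SdhA* and *UQCR-C1* level off after 8 days, and *ND-MWFE* has no called slope.

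Compared per kilobase of exon, which allows levels of different genes to be compared, complex V was the most abundant in tumors at both ends of the series. Its median was 318 CPM per kilobase at 4 days and 131 at 14 days, against 95.3 and 61.7 for complex I. Complex IV had a median of 245 CPM per kilobase at 4 days and 94.9 at 14 days. The highest value was that of *ATPsynC*, at 878 CPM per kilobase at 4 days and 329 at 14 days. As a share of the summed CPM of the 60 genes, complex V went from 45.4% ± 1.03 (SD, n = 4) at 4 days to 39.5% ± 0.424 (SD, n = 4) at 14 days, and complex IV from 12.6% ± 0.615 to 9.30% ± 0.139. Complex I went from 25.3% ± 0.216 to 30.6% ± 0.353 over the same ages.

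The unequal fall was tested as the ratio of summed CPM of each complex to that of complex I in the same library, with 4 tumors at 14 days against 4 at 4 days, a comparison chosen after the values were seen. The log2 ratio of complex IV to complex I was -1.01 ± 0.081 (SD, n = 4) in 4-day tumors and -1.72 ± 0.022 (SD, n = 4) in 14-day tumors, a difference of -0.71. For complex V the difference was -0.47. Both had an exact permutation p of 0.0286 (two-sided, n = 4 per age), the smallest this design can give, and 0.0571 after Benjamini-Hochberg adjustment over the 4 ratios compared. For complexes II and III the differences were 0.055 and 0.0066, each smaller than the spread between libraries of one age (exact permutation p = 0.543 and 0.943, n = 4 per age). *UQCR-C1* made up 609 of 1262 CPM of the complex III sum at 4 days and 478 of 767 CPM at 14 days. The complex III ratio therefore follows *UQCR-C1* more than any other single gene of the complex. It does not show how the other genes moved against complex I, and their ratio without *UQCR-C1* was not tested. By gene, complex III retained a median of 42.0%, against 59.9% for complex I. In control discs the log2 ratio of complex IV to complex I was -0.99 ± 0.085 (SD, n = 3) at 4 days, against -1.15 ± 0.044 (SD, n = 4) a day later.

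Between consecutive tumor ages, the falls were spread unevenly. From 4 to 5 days 21 of the 60 genes fell, where 11.7% of the 9637 tested genes did, and the median difference in log2(CPM + 1) was -0.14. Without single libraries this count was 14 to 29. From 5 to 6 days 5 fell, against 3.94% of all genes. This count was 1 without tumor replicate 1 at 5 days or without tumor replicate 1 or 2 at 6 days, and 2 without tumor replicate 2 or 3 at 5 days, while a fit of only those groups gave 20. From 6 to 8 days 41 fell, against 13.3% of all genes, with a median of -0.24 over 2 days, or -0.12 per day, against -0.14 per day from 4 to 5 days. Without single libraries the count was 31 to 38, below the 41 of all libraries. The 41 included 6 of 7 genes of complex IV, 11 of 12 of complex V and all 4 of complex II. From 8 to 10 days 31 fell (25 to 33 without single libraries), against 12.3% of all genes. All 7 genes of complex IV and 11 of 12 of complex V were among them, but only 10 of 32 of complex I.

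From 10 to 12 days no member passed the test in limma, where 2.72% of all genes fell; 9 members fell at an unadjusted p under 0.05, and edgeR called 0. Without tumor replicate 2 at 12 days, 1 member was called. From 12 to 14 days 32 fell, against 10.3% of all genes, among them all 7 genes of complex IV, 10 of 12 of complex V and 11 of 32 of complex I. This count was 20 without tumor replicate 1 at 12 days and 15 without tumor replicate 4 at 14 days, and 7 in a fit of only those groups. At none of the 6 steps did any member rise in limma, at an unadjusted p under 0.05 or in edgeR, where 12.2%, 4.5%, 13.1%, 11.3%, 2.87% and 6.07% of all genes rose in turn.

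The genes fell with age in control discs too. From 4 to 5 days the summed level went from 11481 ± 444 CPM (SD, n = 3) to 8577 ± 216 CPM (SD, n = 4). Of the 60 genes, 54 fell in limma, where 27.2% of all genes did, and none rose, where 26.6% did. All 60 differences were below 0, so that 0 rose at an unadjusted p or in edgeR either. The median difference was -0.44, against -0.022 for all genes. The libraries at 5 days were all below those at 4 days for 53 genes, as for 28.3% of all tested genes. In tumors over the same day the median difference was -0.14. *COX8*, a small subunit of complex IV, had the lowest control difference, with 96.9, 115 and 130.1 CPM at 4 days and 76.6, 69.7, 57.7 and 62.7 CPM at 5 days (-0.76 ± 0.11 (SE; limma adjusted p = 1.4e-06)). *ND-13A*, an accessory subunit of complex I, had the difference nearest to 0, -0.086.

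At 4 days, 24 of the 60 genes were higher in tumors than in control discs and 2 were lower, where 32.4% and 28.6% of all tested genes were; the share of higher members was not far above that of all genes. With values scaled by library size alone, 15 were higher and 8 lower. The median difference was 0.12, against 0.035 for all genes. By library size alone these medians were 0.0060 and -0.058. Without single libraries the member median lay between 0.095 (without control replicate 1) and 0.19 (without control replicate 3 or tumor replicate 4). The count of lower genes was 1 without control replicate 3 or without tumor replicate 4. The higher genes were 14 of complex I, 2 of complex II, 3 of complex III, 3 of complex IV and 2 of complex V. *SdhA* was read at 359, 311 and 285 CPM in control discs and 422, 406, 431 and 512 CPM in tumors, with no overlap, a difference of 0.48 ± 0.074 (SE; limma adjusted p = 2.3e-06). *ND-75* was read at 305, 281 and 250.0 CPM in control discs, below all 4 tumors, a difference of 0.27 ± 0.062 (SE; limma adjusted p = 4.5e-04). The 2 lower genes both belong to the peripheral stalk of ATP synthase. *ATPsynCF6*, coupling factor 6, was read at 159, 175 and 201 CPM in control discs and 163, 163, 157 and 135 CPM in tumors, so that the groups overlapped, a difference of -0.21 ± 0.071 (SE; limma adjusted p = 0.014). *ATPsynD*, subunit d, was read at 277, 271 and 271 CPM and 239, 241, 244 and 265 CPM with no overlap, a difference of -0.14 ± 0.051 (SE; limma adjusted p = 0.017).

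At 5 days the tumors stood above control discs. In limma 53 of the 60 genes were higher, where 39% of all tested genes were, and the median difference was 0.42 against 0.063 for all genes. No gene was lower, where 32.5% of all genes were; 1 was at an unadjusted p under 0.05, edgeR called 0, and 1 was called without control replicate 4, tumor replicate 2 or tumor replicate 4. All 4 tumors lay above all 4 control discs for 54 genes, as for 37.3% of all tested genes. *SdhB*, the iron-sulfur subunit of complex II, had the highest difference, with 143, 144, 137 and 159.9 CPM in control discs and 282, 275, 272 and 271 CPM in tumors (0.91 ± 0.064 (SE; limma adjusted p = 1.6e-13)). *ND-ACP*, the mitochondrial acyl carrier protein bound to complex I, was next, with 85.8, 78.4, 75.6 and 76.0 CPM and 143, 151, 148 and 141 CPM (0.88 ± 0.053 (SE; limma adjusted p = 3.9e-15)). Every gene of complexes II and IV was higher, as were 28 of 32 of complex I, 4 of 5 of complex III and 10 of 12 of complex V. *ATPsynCF6* overlapped between the genotypes at 5 days, with 146, 132, 131 and 128 CPM in control discs and 144, 126, 136 and 133 CPM in tumors (0.0073 ± 0.066 (SE; limma adjusted p = 0.93)).

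The change of the genotype difference between 4 and 5 days was tested as an interaction. It was above 0 and past the threshold for 36 of the 60 genes, where 19.4% of all tested genes were, with a median of 0.29 against 0.022 for all genes. None was past the threshold below 0 in limma, where 19.2% of all genes were, with 0 at an unadjusted p under 0.05 and 0 in edgeR. By complex, the 36 were 16 of 32, 3 of 4, 2 of 5, 6 of 7 and 9 of 12 for complexes I to V. The 3 genes with the largest interaction were *COX8*, *SdhB* and *ND-24*. *COX8* was read at 133, 128, 132 and 87.6 CPM in tumors at 4 days and 106, 104, 109 and 112 CPM at 5 days, an interaction of 0.62 ± 0.15 (SE; limma adjusted p = 0.0018). *SdhB* went from 237, 215 and 199 CPM to 143, 144, 137 and 159.9 CPM in control discs and from 253, 241, 259.6 and 325 CPM to 282, 275, 272 and 271 CPM in tumors. Control discs thus dropped without overlap while the tumor ages overlapped, an interaction of 0.60 ± 0.095 (SE; limma adjusted p = 7.2e-06). *ND-24*, a core subunit of complex I, went from 101, 97.1 and 99.7 CPM to 65.4, 68.7, 66.0 and 67.7 CPM in control discs and stayed between 102 and 112 CPM in all 8 tumors of both ages, an interaction of 0.54 ± 0.075 (SE; limma adjusted p = 1.0e-06).

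**Figure D4:**
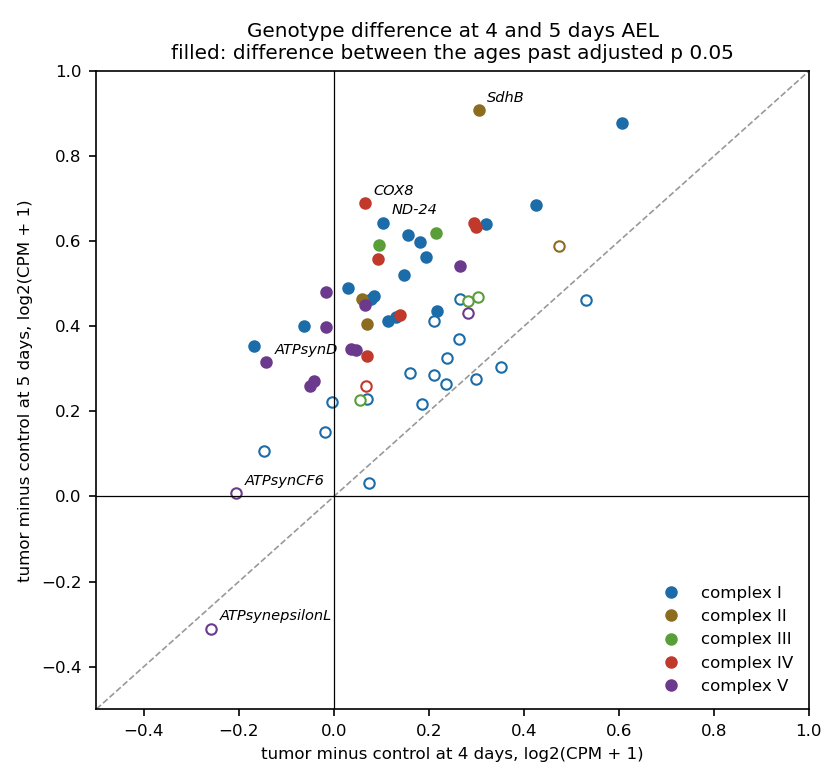
Tumor minus control difference of log2(CPM + 1) at 5 days (vertical) against 4 days (horizontal) for each of the 60 genes, coloured by complex; filled points passed the interaction test in limma and the dashed line marks equal differences. All points but *ATPsynepsilonL* lie above 0 at 5 days, while at 4 days 48 lie above 0 and 12 below.

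The levels of markers of several other cell types moved with these comparisons. The larval muscle sum was 469 to 724 CPM in control discs at 4 days and 121 to 151 CPM at 5 days, with tumors above controls at both ages. The sum of 10 hemocyte markers was 368 to 522 CPM in control discs and 646 to 1125 CPM in tumors at 4 days, and 112 to 203 CPM and 376 to 825 CPM at 5 days. In tumors at 14 days it was 299.6 to 427 CPM. The sum of 5 tracheal markers was 1519 to 1765 CPM in control discs and 3539 to 4626 CPM in tumors at 4 days, 1331 to 1607 CPM and 4859 to 5107 CPM at 5 days, and 5327 to 6289 CPM in tumors at 14 days. Sums of the wing disc, myoblast and testis markers went the other way between genotypes. At 5 days their sums were 3822 to 4051, 307 to 335 and 114 to 128 CPM in control discs, against 1938 to 2156, 220.5 to 236 and 84.4 to 96.9 CPM in tumors. The groups did not overlap for any of these sums at 5 days. Of the 9 testis markers, 5 were under 3 reads in every library. The testis sum rests on the remaining markers of that list and is not read as testis tissue. Of the variance of the log2 of the larval muscle sum over tumor libraries, 95.5% lay between ages, and 88.2% for the gut sum. With the log2 of both sums as covariates, a model added after the data were seen, 47 genes still had a called falling slope, where 20.3% of all tested genes did, and the median slope was -0.070. For tumors against controls at 5 days that model called 11 higher genes, where 11.8% of all genes were, with a median difference of 0.38. At 4 days it called 4 higher and 0 lower, where 15.1% and 12.2% of all genes were. For tumors at 5 against 4 days it called 0 falls and 0 rises, where 2.3% and 3.08% of all genes were called, with a median of -0.11. Among tumors of 8 to 14 days alone, in which the muscle sum was 335 to 399 CPM at 8 days and 326 to 512 CPM at 14 days, 54 of the 60 genes had a called fall, where 27.6% of all tested genes did, with a median slope of -0.073 per day. Beyond these values, the part of other cell types in the results was not tested.

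**Figure D5:**
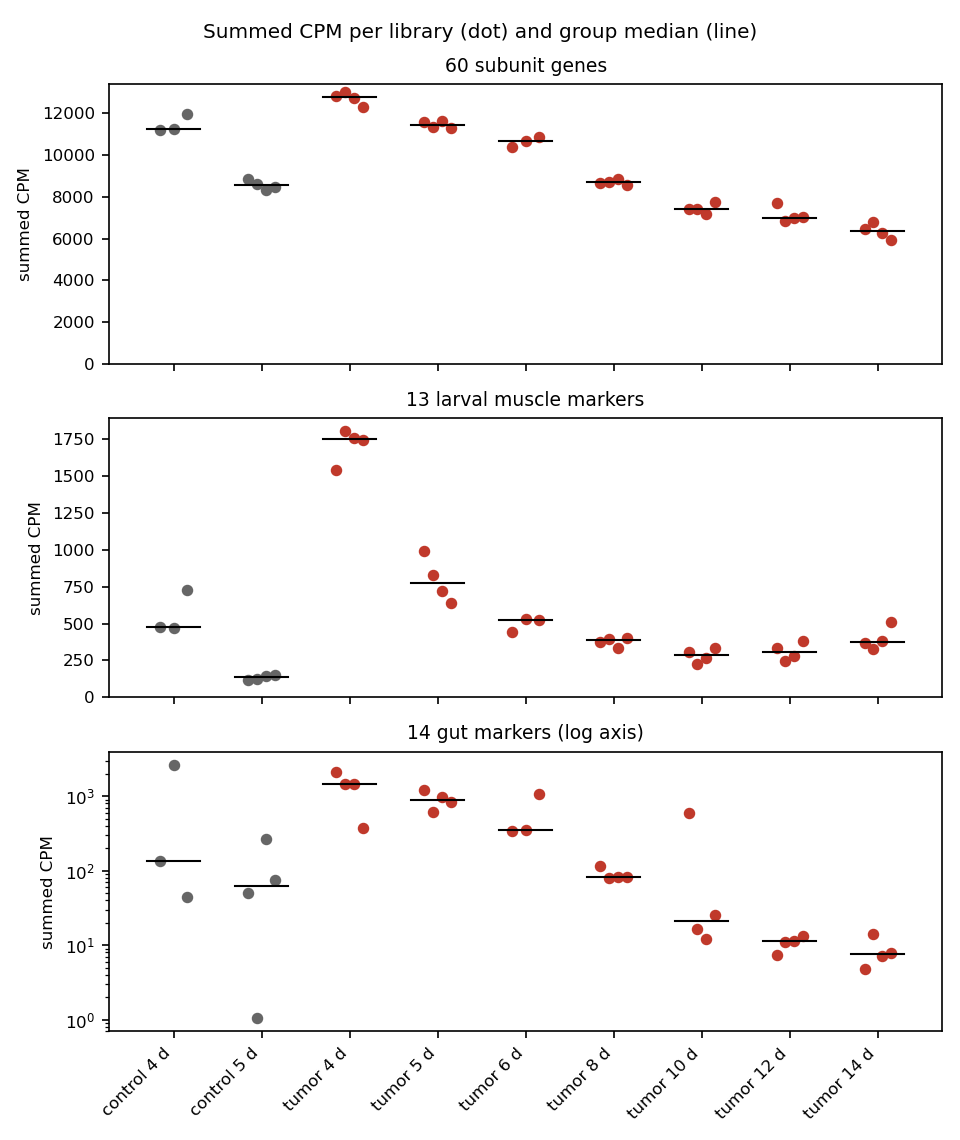
Summed CPM per library (points) and group median (lines) of the 60 subunit genes (top), 13 larval muscle markers (middle) and 14 gut markers (bottom, log axis) in the 9 groups. The subunit sum keeps falling from 8 to 14 days while the muscle sum stays between 228 and 512 CPM.

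Transcript length moved with the slopes to a small degree. Across the 58 members above 5 CPM, the Spearman correlation between slope and exon length was 0.28, and across 8091 tested genes with a length it was 0.20; genes are not independent replicates, and all share the same libraries. The 29 shorter genes, of 477 to 888 bases, had a median slope of -0.11, and the 29 longer ones, of 894 to 3817 bases, a median of -0.081. In tumor replicate 4 at 4 days, the deviation of the members from the other 3 libraries had a correlation of 0.51 with exon length, and 0.33 over all genes. The 3 other libraries of that group gave -0.46 to -0.28 for the members. Each of these was set against libraries that include replicate 4, so their sign is not independent of its value. The part of RNA quality in these results was not tested.

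In tumors at 14 days against control discs at 5 days, which differ in both genotype and age, 45 genes were lower and 3 higher, where 36.1% and 35.6% of all genes were. All 7 genes of complex IV and all 12 of complex V were lower. *COX7A* was read at 216, 216, 203 and 192 CPM in control discs and 95.6, 95.3, 92.0 and 90.4 CPM in tumors, a difference of -1.14 ± 0.066 (SE; limma adjusted p = 1.1e-15). *ATPsynC* was read at 1196, 1182, 1138 and 1086 CPM and 634, 619, 608 and 594 CPM, a difference of -0.90 ± 0.046 (SE; limma adjusted p = 4.3e-17). The 3 higher genes were *ND-B14.5B*, *ND-PDSW* and *UQCR-C1*, named after their values were seen. *UQCR-C1* was read at 394, 382, 371 and 409 CPM in control discs and 501, 519, 476 and 418 CPM in tumors, a difference of 0.29 ± 0.071 (SE; limma adjusted p = 4.7e-04). *ND-B14.5B* was read at 39.4, 37.5, 35.6 and 38.0 CPM and 59.9, 60.2, 60.8 and 48.3 CPM with no overlap, a difference of 0.59 ± 0.086 (SE; limma adjusted p = 4.9e-07). Without control replicate 4 at 5 days, 5 genes were higher.

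Subunits that carry other symbols also fell. Of 9 that matched, 8 were tested. All 8 had a called falling slope, where 40.8% of tested genes did, with a median of -0.14. At 5 days all 8 were higher in tumors than in controls, where 39% of all genes were. In control discs all 8 fell from 4 to 5 days, where 27.2% of all genes did. At 4 days 4 of the 8 were higher in tumors and 0 lower, where 32.4% and 28.6% of all genes were. The steepest slope was that of *ox*, a small subunit of complex III, at -0.18 ± 0.0098 (SE; limma adjusted p = 8.5e-16). *blw*, the catalytic-head alpha subunit of ATP synthase, had a slope of -0.15 ± 0.0075 (SE; limma adjusted p = 2.4e-16). *Cyt-c-p*, the somatic cytochrome c, had a mean at 4 days of 206 ± 21.0 CPM (SD, n = 4) in tumors, against 89.1 ± 9.93 CPM (SD, n = 3) in controls, a difference of 1.20 ± 0.094 (SE; limma adjusted p = 2.9e-12). In tumors at 14 days it was at 59.6 ± 6.47 CPM (SD, n = 4).

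Other mitochondrial lists were read against the same slopes over all tested genes, of which 40.8% fell and 36.4% rose. Of 13 citrate cycle genes, 12 had a falling slope and 1 a rising one, with a median of -0.075. *kdn*, citrate synthase, had the steepest at -0.21 ± 0.01 (SE; limma adjusted p = 2.0e-16), from 518 ± 63.4 CPM (SD, n = 4) at 4 days to 122 ± 6.60 CPM (SD, n = 4) at 14 days. Of 12 tested carriers, import factors and porin, 11 fell and none rose. Among them *sesB*, the ADP/ATP carrier of the inner membrane, had a slope of -0.15 ± 0.0065 (SE; limma adjusted p = 1.7e-17). *Ant2*, the other ADP/ATP carrier, had a slope of -0.022 ± 0.012 (SE; limma adjusted p = 0.091). Its mean was only 2.52 CPM in tumors at 4 days and 1.87 CPM at 14 days, a level at which log2(CPM + 1) understates a change.

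Of 9 tested assembly factors of the complexes, 7 fell and 1 rose, with a median slope of -0.044. Of 9 tested genes for mitochondrial DNA maintenance and expression, 5 fell and none rose, a share of falls near that of all genes. *mtTFB2*, a mitochondrial transcription factor, had a slope of -0.14 ± 0.009 (SE; limma adjusted p = 3.2e-14), while *TFAM*, which packages mitochondrial DNA, had -0.017 ± 0.0032 (SE; limma adjusted p = 1.8e-05). Of 8 genes for mitochondrial fusion, fission and quality control, 4 fell and 2 rose, with a median of -0.011, and of 9 regulators 3 fell and 5 rose. The shares of falls in both of these lists were also near that of all genes. *srl*, the fly PGC-1 coactivator, had a slope of -0.057 ± 0.0071 (SE; limma adjusted p = 3.5e-08), and *ewg*, the fly ortholog of the mammalian factor NRF-1, had 0.12 ± 0.0088 (SE; limma adjusted p = 9.5e-13). *Myc*, a growth regulator, had a mean at 4 days of 190.4 ± 8.76 CPM (SD, n = 4) in tumors, against 93.3 ± 2.73 CPM (SD, n = 3) in controls, a difference of 1.02 ± 0.082 (SE; limma adjusted p = 5.3e-12). Its slope over tumor age was not called, at 0.01 ± 0.0073 (SE; limma adjusted p = 0.2).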

How the data were processed

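Bulk RNA-seq of whole discs was deposited as 1 table per library with a CPM value per gene. For alignment the authors used STAR, for counting featureCounts at default settings and for CPM edgeR; counting by default ignores strand and leaves out reads that fall on more than 1 gene. In all libraries the deposited CPM are on an effective library size, so that sums differ from the nominal total; where they exceed it, the deposited values are recorded as a score. All deposited values were whole multiples of 1 read within a tolerance of 0.05, so reads were recovered for alternatives. The members and gene lists were chosen with earlier results of these data known.

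Genes with enough reads (9408 over tumors, 9637 over all libraries) were tested on log2(CPM + 1) with limma 3.58.1 in R 4.3.3: a slope on age in days over tumors, and contrasts between group means fitted over all libraries, with Benjamini-Hochberg adjustment over all tested genes and a threshold of 0.05. Fold changes are on the log2(CPM + 1) scale, which understates low genes. edgeR 4.0.16 and DESeq2 1.42.0 served as alternatives, with other scaling, a pseudocount of 0.1, no filter, log2 of age, 2-group fits, a replicate block and leaving out each library. The tests were tested on simulated data. p-values measure the spread between these libraries. Replicate pairs differed by 5.63 to 42.6 times the sampling noise, so all were kept as separate samples. Named genes were, in each complex, the steepest, the shallowest and the most abundant, those called against the majority at 4 or 5 days, and the 3 with the largest interaction; others are named for an extreme value, for a known role in a list, or as stated. Exon lengths and overlaps came from the Ensembl annotation of BDGP6 and mitochondrial genes from RefSeq; the annotation release used for counting is not given in the sources used here. No columns of other samples were used. Intervals were not computed, and the value of 3 reads covers counting error only.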

Additional observations from a re-analysis of the deposited data

Results flagged for a closer look

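Of 168 groups of 4 libraries examined for an extreme library, 14 had one whose gap to the nearest other library was large for the group's range, where chance gives about 1 in 20. Of these, 5 fell on tumor replicate 4 at 4 days. It was the highest of its group for *ND-75* (385 CPM), *SdhD* (84.3 CPM) and *UQCR-C1* (720 CPM), and the lowest for *ATPsynC* (1517 CPM) and *COX8* (87.6 CPM). Tumor replicate 4 at 5 days was the lowest for *ND-75* (286 CPM) and *UQCR-C1* (515 CPM). The summed level of complex I stood apart in control replicate 1 at 5 days (2294 CPM, highest) and tumor replicate 1 at 12 days (2352 CPM, highest). Single genes stood apart in 5 more groups. *ND-B15* was highest in tumor replicate 4 at 10 days (20.0 CPM) and *SdhD* in tumor replicate 4 at 8 days (56.6 CPM). *ATPsynE* was lowest in tumor replicate 2 at 5 days (135 CPM) and highest in tumor replicate 3 at 8 days (93.8 CPM), and *ATPsynepsilonL* was lowest in control replicate 4 at 5 days (0.767 CPM).

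Some genes were named as steepest, shallowest or most abundant of a complex, as called against the majority, or for the largest interactions. Among these, the difference between tumors and control discs changed from 4 to 5 days for 10 genes. The test was the interaction in limma on log2(CPM + 1), and genes described for other reasons were not counted here. In complexes I and II the interaction was 0.54 for *ND-24*, 0.60 for *SdhB* and 0.40 for *SdhD*. In complexes III and IV it was 0.40 for *UQCR-Q*, 0.29 for *COX4*, 0.35 for *COX5A* and 0.62 for *COX8*. In complex V it was 0.38 for *ATPsynE*, 0.31 for *ATPsynC* and 0.46 for *ATPsynD*. All 10 were in the direction of a larger tumor excess at 5 days.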

How the results depend on the processing

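The count of 58 falling slopes was the same without any single library, and over all comparisons 387 recomputed counts stayed within 1.5 times the reported one and 27 did not. Scaling by library size alone gave, at 4 days, 8 members lower and 15 higher in tumors, and at 5 days 1 lower; over the steps in tumors it gave 11 falls to 6 days, 2 to 12 days and 21 to 14 days. Fits of only the groups compared gave 20 falls to 6 days, 7 to 14 days and 5 genes higher in tumors at 14 days than in control discs at 5 days. With marker sums in the model, tumors at 4 days had 0 lower and 4 higher members, tumors at 5 days 11 higher, and 0 fell from 4 to 5 days. The cause was not tested. Leaving out one library moved the count of lower members between 1 and 2 at 4 days, between 0 and 1 at 5 days, between 1 and 5 for the step to 6 days, between 0 and 1 for that to 12 days and between 15 and 38 for that to 14 days, and that of members higher at 14 days than in 5-day control discs between 3 and 5.

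Some differences near 0 changed sign. At 4 days, scaling by library size gave -0.057 for *SdhD*, -0.050 for *COX7A*, -0.051 for *ATPsynE*, -0.083 for *ATPsynC*, -0.051 for *COX8* and -0.014 for *ND-24*, and the marker model -0.058 for *ATPsynE*. For *ATPsynCF6* at 5 days it was -0.079 by library size, -0.016 with DESeq2 size factors and -0.24 in the marker model. The slope of *ND-MWFE* was -0.00069 from 8 to 14 days. Without single libraries the ranges were -0.0033 to 0.011 for the *ND-MWFE* slope, and at 4 days -0.0072 to 0.11 for *ATPsynC*, -0.0076 to 0.15 for *ATPsynE*, -0.045 to 0.21 for *COX8* and -0.0072 to 0.091 for *SdhD*. They were -0.024 to 0.048 for *ATPsynCF6* at 5 days and -0.011 to 0.048 for the ratio of complex III to complex I.

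Libraries with the same replicate number deviated together no more than others (mean correlation -0.012 over 129 pairs, against 0.0040 over 384), so the numbers do not pair them. With a replicate block, 58 slopes fell, 25 members were higher and 2 lower at 4 days, 53 higher at 5 days, and 34 fell from 6 to 8 days. The largest shift of the median of all genes by another scaling was -0.093. Depth limits *ND-MWFE* and *ATPsynepsilonL*.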
